A study of Homo sapiens with 12 samples.

Results

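The 10 genes described here encode proteases that cut the extracellular matrix and the proteins that hold them in check: the matrix metalloproteinases MMP1, MMP2, MMP3, MMP7, MMP10 and MMP14, the tissue inhibitors of metalloproteinases TIMP1, TIMP2 and TIMP3, and the urokinase-type plasminogen activator PLAU. They were taken by gene symbol from the array's probe annotation. All 10 of 19775 named genes were found, with 21 of the 54675 probe sets, which are the groups of probes that measure a transcript. The study profiled HK-2, an immortalized cell line that derives from the proximal tubule of a human kidney, on 12 Affymetrix arrays in 4 groups of 3 biological replicates. Cells in medium with EGF, hydrocortisone, insulin, transferrin and selenite received a low dose of Kbr or its vehicle (control) near confluence, and were harvested after 24 or 48 h. The labels do not expand the name Kbr and state neither its concentration nor the vehicle. All arrays come from the same cell line, so the p values measure the spread between replicate cultures of that line.

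Matrix metalloproteinases are zinc enzymes made as inactive precursors, in which a cysteine of the propeptide blocks the zinc until the propeptide is cut off. Once active they are inhibited by TIMP proteins, which bind the catalytic site. Urokinase turns plasminogen into plasmin, which degrades fibrin and matrix and can itself cut the precursors of some metalloproteinases. In the kidney tubule these enzymes and inhibitors take part in the turnover of the basement membrane, and MMP7 is known as a gene that injured tubular epithelium expresses.

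Of the 10 genes, 6 were measured above background: MMP1, MMP7, MMP14, TIMP1, TIMP2 and PLAU. After 48 h of Kbr, MMP7 and TIMP2 fell more than 2-fold against controls of the same time and TIMP1 fell 1.24-fold, and no member rose. Of all tested genes 42.8% passed at this time, 20.8% lower and 22% higher. After 24 h no member passed the test, where 5.74% of all tested genes did. With the replicate number as a block, a fit that compares arrays of the same number, PLAU passed at 24 h, and PLAU and MMP14 joined the others at 48 h. In that fit 24.4% of all tested genes passed at 24 h, and 28.8% were lower at 48 h. Between 24 and 48 h MMP1, MMP7 and TIMP2 fell in treated cells, where 5.04% of all tested genes were lower. The MMP1 call is not independent support, since its fall in controls was part of the reason for choosing these genes. In controls the MMP1 mean also fell, from 7.54 to 4.42, which is described without a test. MMP7 was lower at 48 h in controls as well (log2 difference -0.93), without passing. Some 48 h arrays of MMP1 lay near the lower end of the scale, in treated cells and in controls. The values are deposited log2 values, so a difference of 1 is a 2-fold change. "Passed" means an adjusted p below 0.05 in limma, a linear model with a moderated variance fitted to 10665 genes, with Benjamini-Hochberg adjustment over all of them. A gene entered the test if at least 3 of the 12 arrays lay above a log2 value of 4. An exact permutation test of 3 arrays against 3 could not go below p = 0.1.

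MMP2, MMP3, MMP10 and TIMP3 did not enter the test. MMP2 is a gelatinase whose precursor MMP14 activates at the cell surface, MMP3 and MMP10 are stromelysins, and TIMP3 is the inhibitor that stays bound to the matrix. Their 9 probe sets lay between 2.02 and 2.59 on every array, and no probe set moved by more than 0.09 over the 12 arrays. On this array 56.9% of all probe sets never exceeded a log2 value of 4. The arrays therefore gave no measurable level of these 4 genes in any group, which sets no bound on the protein or on transcripts that the probes miss.

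MMP7, MMP10, MMP1 and MMP3 are neighbours. In the RefSeq gene table they stand in a run of 7 protein-coding genes on chromosome 11, in the order MMP7, MMP20, MMP27, MMP8, MMP10, MMP1, MMP3. Promoter sequences were available from RefSeq (GRCh38.p14) for 6 of the 10 members, and not for MMP1, MMP2, MMP3 and TIMP2. The stretches of MMP7 and MMP10 are shown because these neighbours differed on the arrays, MMP7 well above background in every group and MMP10 at the lower end in all. Each is the 100 bases that end just before the annotated start, written 5′ to 3′ on the gene's strand. Capitals mark a match to TGAGTCA, the core that AP-1 factors bind, or to TATAAA, the TATA box.

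MMP7, chr11:102530748-102530847, minus strand: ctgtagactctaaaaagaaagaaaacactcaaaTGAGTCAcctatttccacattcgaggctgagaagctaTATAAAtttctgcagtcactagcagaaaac
MMP10, chr11:102780629-102780728, minus strand: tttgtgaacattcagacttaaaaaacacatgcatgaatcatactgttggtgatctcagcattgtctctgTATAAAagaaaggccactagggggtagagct

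The 250 bases before each start were searched on both strands for these motifs and for TGACNNNGC, the core of the antioxidant response element, which can overlap an AP-1 match. MMP7 held TGAGTCA, starting 67 bases before the start, and TATAAA at 30 bases. MMP10 held TATAAA at 31 bases and no exact TGAGTCA. At 67 bases, the place of the MMP7 match, its stretch reads tgaatca, which differs from TGAGTCA by 1 letter. Such near matches were not searched for in any promoter. The upstream of 2 annotated PLAU promoters held 1 match to TGACNNNGC, on the other strand and starting 168 bases before the start. The 250 bases of TIMP1, TIMP3 and MMP14 and of the second PLAU promoter held none of the 3 motifs. Among 35116 promoters of the same length, 4.2% held TGAGTCA, 10.9% TGACNNNGC and 10.7% TATAAA. A match is a description of the letters and not a measurement of binding.

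The collagenase MMP1, which cuts fibrillar collagen, had the widest range of the members. Controls at 24 h read 7.54, 7.43 and 7.65 in replicates 1, 2 and 3, and treated cells at 24 h 7.31, 6.91 and 7.30. At 48 h controls read 2.99, 4.82 and 5.46, and treated cells 3.00, 3.02 and 4.61. Every 48 h array thus lay below every 24 h array, whatever the treatment, and the 48 h arrays of both treatments overlapped. The fall in controls was part of the reason for choosing these genes, so it is a description without a test. The control mean went from 7.54 ± 0.11 to 4.42 ± 1.28 (SD, n = 3), a log2 difference of -3.12, and by number the 3 differences were -4.55, -2.61 and -2.19. Controls of the 2 times did not overlap, lower at 48 h, as in 14.5% of all tested genes. Treated cells fell from 7.17 ± 0.23 to 3.54 ± 0.92 (SD, n = 3), a log2 change of -3.63 (standard error 0.57, limma adjusted p = 0.00549). The members were chosen with earlier results of these data known, so this p value is not independent support for the fall. By number the 3 treated differences were -4.30, -3.89 and -2.69. The values 2.99, 3.00 and 3.02 are near the lower end of the scale, have no order among themselves, and depend on the background correction, as do folds computed from them.

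Against controls of the same time MMP1 did not pass. Its log2 difference was -0.37 at 24 h (95% interval -1.62 to 0.88, limma adjusted p = 0.742) and -0.88 at 48 h (-2.12 to 0.37, adjusted p = 0.233). At 24 h the treated arrays all lay below the controls. At 48 h the treated array was lower in replicates 2 and 3, with differences of -1.80 and -0.85, and level with its control in replicate 1, where both were near the lower end. The 48 h difference depended on single arrays. It was -1.60 without control replicate 1 (adjusted p = 0.017), -0.36 without control replicate 3 (0.639) and -1.41 without treated replicate 3 (0.0624), and the 24 h difference was -0.24 without treated replicate 2 (0.884).

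MMP7, or matrilysin, is a small metalloproteinase of epithelial cells that lacks the hemopexin domain of most of its family. Controls read 9.95, 10.35 and 9.74 at 24 h and 8.54, 9.37 and 9.34 at 48 h. Treated cells read 9.43, 9.91 and 9.46 at 24 h and 7.25, 7.82 and 8.44 at 48 h. At 48 h the treated arrays all lay below the controls, while at 24 h the groups overlapped. MMP7 fell 2.38-fold at 48 h, from 9.09 ± 0.47 to 7.84 ± 0.59 (SD, n = 3; log2 change -1.25, standard error 0.31, limma adjusted p = 0.00815). At 24 h the difference was -0.41 (95% interval -1.10 to 0.27, adjusted p = 0.455), or -0.24 without control replicate 2 (0.745), and the treated array was lower in each of the 3 pairs of the same number at both times.

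MMP7 was also lower at 48 h than at 24 h within each treatment. In treated cells it fell 3.40-fold (log2 change -1.76, standard error 0.31, adjusted p = 0.00859). In controls the log2 difference was -0.93 (95% interval -1.61 to -0.25, adjusted p = 0.122), with every 48 h control below every 24 h control. With the replicate block the control difference passed (adjusted p = 0.0261). Whether the treatment difference was larger at 48 h than at 24 h was tested directly and did not pass (-0.84, 95% interval -1.80 to 0.13, adjusted p = 0.377).

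**Figure D1:**
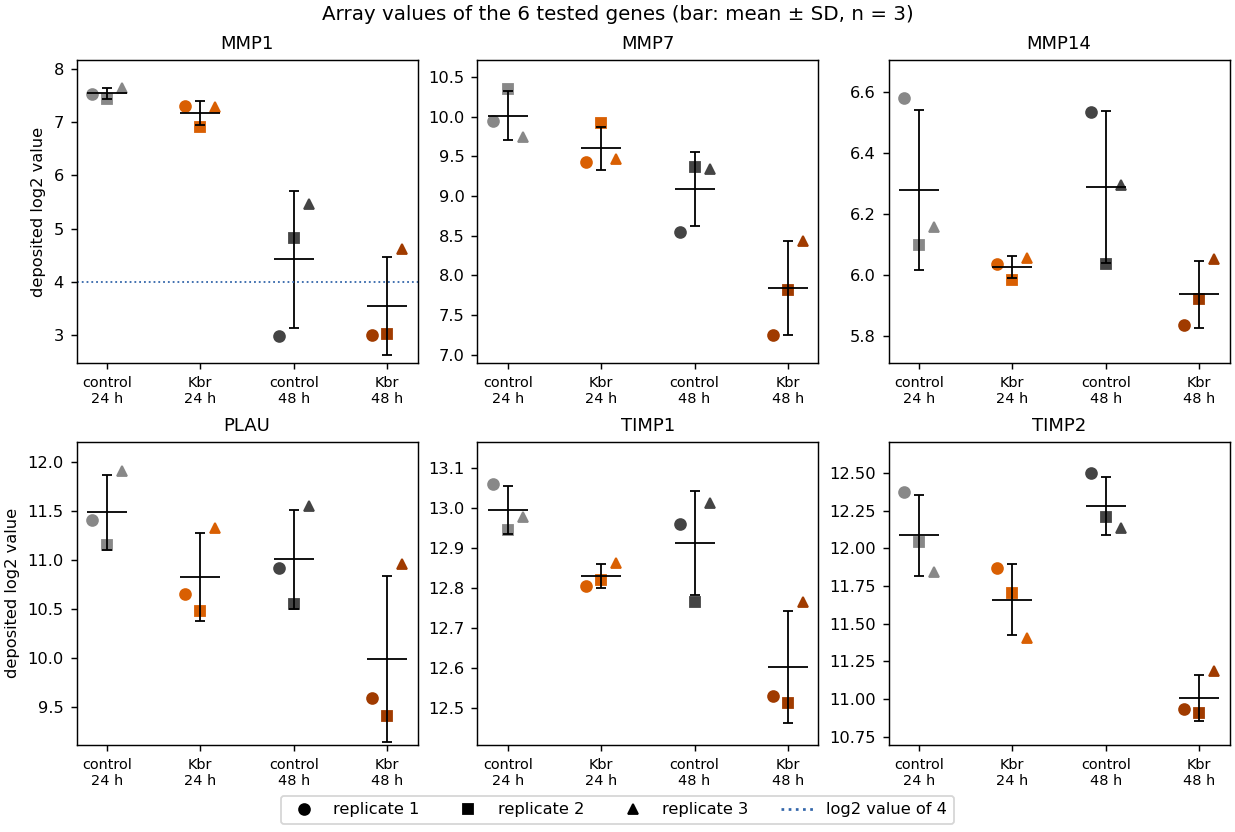
Deposited log2 values (y axis, a separate scale for each gene) of MMP1, MMP7, MMP14, PLAU, TIMP1 and TIMP2 on the 12 arrays, by group on the x axis; marker shape gives the replicate number and the bar the mean ± SD of 3 arrays. All 48 h arrays of MMP1 lie at or below 5.46 and all its 24 h arrays at or above 6.91, and the treated 48 h arrays of MMP7, TIMP1 and TIMP2 lie below the lowest 48 h control.

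MMP14, the membrane-type metalloproteinase that activates the MMP2 precursor, was measured by 4 probe sets. The probe set 160020_at had the highest mean and stood for the gene. Its values were 6.58, 6.10 and 6.16 in 24 h controls, 6.03, 5.98 and 6.06 in treated cells at 24 h, 6.53, 6.03 and 6.29 in 48 h controls and 5.83, 5.92 and 6.05 in treated cells at 48 h. Treated arrays lay below all controls at 24 h and overlapped them at 48 h. The log2 difference was -0.25 at 24 h (95% interval -0.58 to 0.08, limma adjusted p = 0.335) and -0.35 at 48 h (-0.68 to -0.02, adjusted p = 0.0798). Without control replicate 1 of the same time these were -0.10 (0.783) and -0.23 (0.268). The 48 h difference passed with the replicate block (adjusted p = 0.0405), without control replicate 2 at 48 h (0.0324) or control replicate 1 at 24 h (0.0458), and with the mean of the gene's probe sets (-0.54, 0.0185). It did not pass in the other alternatives, with no filter (0.146) and only the groups compared (0.114) among them.

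The MMP14 probe sets differed in the size of the 48 h difference. When every probe set was tested by itself, 202827_s_at fell 2.43-fold at 48 h, where 17.5% of the 19527 tested probe sets passed as lower. It read 6.45, 5.88 and 6.84 in controls and 5.34, 4.70 and 5.28 in treated cells, without overlap (log2 change -1.28, standard error 0.30, adjusted p = 0.00702 over 19527 probe sets). The third, 217279_x_at, lay near a log2 value of 4, at 4.14, 3.67 and 4.19 in 48 h controls and 3.85, 3.79 and 3.80 in treated cells (log2 difference -0.19, limma adjusted p = 0.366). The fourth, 202828_s_at, stayed below 4 on every array and was not tested. All 4 had lower means in treated cells at 48 h, and whether MMP14 passed depended on the probe set read.

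TIMP2 inhibits metalloproteinases and also forms the complex with MMP14 through which the MMP2 precursor is activated. Controls read 12.37, 12.04 and 11.84 at 24 h and 12.50, 12.21 and 12.14 at 48 h. Treated cells read 11.87, 11.70 and 11.40 at 24 h and 10.94, 10.91 and 11.19 at 48 h. The treated arrays at 48 h lay below all other arrays of the series, and at 24 h 1 treated array lay just above the lowest control. At 48 h TIMP2 fell 2.41-fold, from 12.28 ± 0.19 to 11.01 ± 0.15 (SD, n = 3; log2 change -1.27, standard error 0.17, limma adjusted p = 0.000265). This call was kept in all 12 fits that left out 1 array, with an adjusted p of at most 0.00172. At 24 h the difference was -0.43 (95% interval -0.80 to -0.06, adjusted p = 0.148), or -0.29 without control replicate 1 (0.438), and the treated array was the lower one in each pair of the same number.

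The treatment difference of TIMP2 was larger at 48 h than at 24 h by -0.84 log2 units (95% interval -1.36 to -0.32). This did not pass over all genes (limma adjusted p = 0.149), and passed with the replicate block (adjusted p = 0.0384). The time course of TIMP2 was also tested in each arm by itself. In controls the log2 difference from 24 to 48 h was 0.19 (95% interval -0.17 to 0.56, adjusted p = 0.527), while in treated cells it fell by 0.65 (standard error 0.17, adjusted p = 0.034). That call was lost without replicate 1 or 2 of the treated arrays at either time, with adjusted p of 0.0867 to 0.122. Its other probe sets also fell at 48 h when tested by themselves: 224560_at by 1.36 (adjusted p = 0.000451) and 203167_at by 0.56 (adjusted p = 0.0382).

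TIMP1, a secreted inhibitor of most metalloproteinases, was among the brightest probe sets. Its mean over all arrays, 12.84, was above that of 98.7% of probe sets. It read 13.06, 12.94 and 12.98 in 24 h controls, 12.81, 12.82 and 12.86 in treated cells at 24 h, 12.96, 12.77 and 13.01 in 48 h controls and 12.53, 12.51 and 12.76 in treated cells at 48 h. At 24 h the groups were apart. At 48 h they were too, although the highest treated array and the lowest control were nearly level. TIMP1 fell 1.24-fold at 48 h, from 12.91 ± 0.13 to 12.60 ± 0.14 (SD, n = 3; log2 change -0.31, standard error 0.10, limma adjusted p = 0.026). This call was lost without control replicate 1 (adjusted p = 0.0738) or 3 (0.0859), or treated replicate 1 (0.0773) or 2 (0.0909), at 48 h, and with only the groups compared in the fit (0.0946). At 24 h the log2 difference was -0.17 (95% interval -0.38 to 0.05, adjusted p = 0.337).

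PLAU differed between replicates in the same order in every group. It read 11.40, 11.16 and 11.91 in 24 h controls, 10.66, 10.48 and 11.33 in treated cells at 24 h, 10.92, 10.55 and 11.55 in 48 h controls and 9.59, 9.41 and 10.96 in treated cells at 48 h. Replicate 3 was the highest and replicate 2 the lowest in each of the 4 groups. Treated and control arrays therefore overlapped, while each treated array lay below the control of its own number, by 0.75, 0.67 and 0.58 at 24 h and by 1.33, 1.14 and 0.59 at 48 h. Without regard to the numbers the log2 difference was -0.67 at 24 h (95% interval -1.57 to 0.23, limma adjusted p = 0.351) and -1.02 at 48 h (-1.92 to -0.12, adjusted p = 0.0651), and neither passed. With the replicate block both passed (adjusted p = 0.0168 and 0.000614). At 48 h it also passed without treated replicate 3 (-1.51, adjusted p = 0.00544) and, narrowly, after a repeated quantile normalization (0.0498). The second probe set, 211668_s_at, had the same order of replicates and a difference of -1.16 at 48 h (adjusted p = 0.0777).

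**Figure D2:**
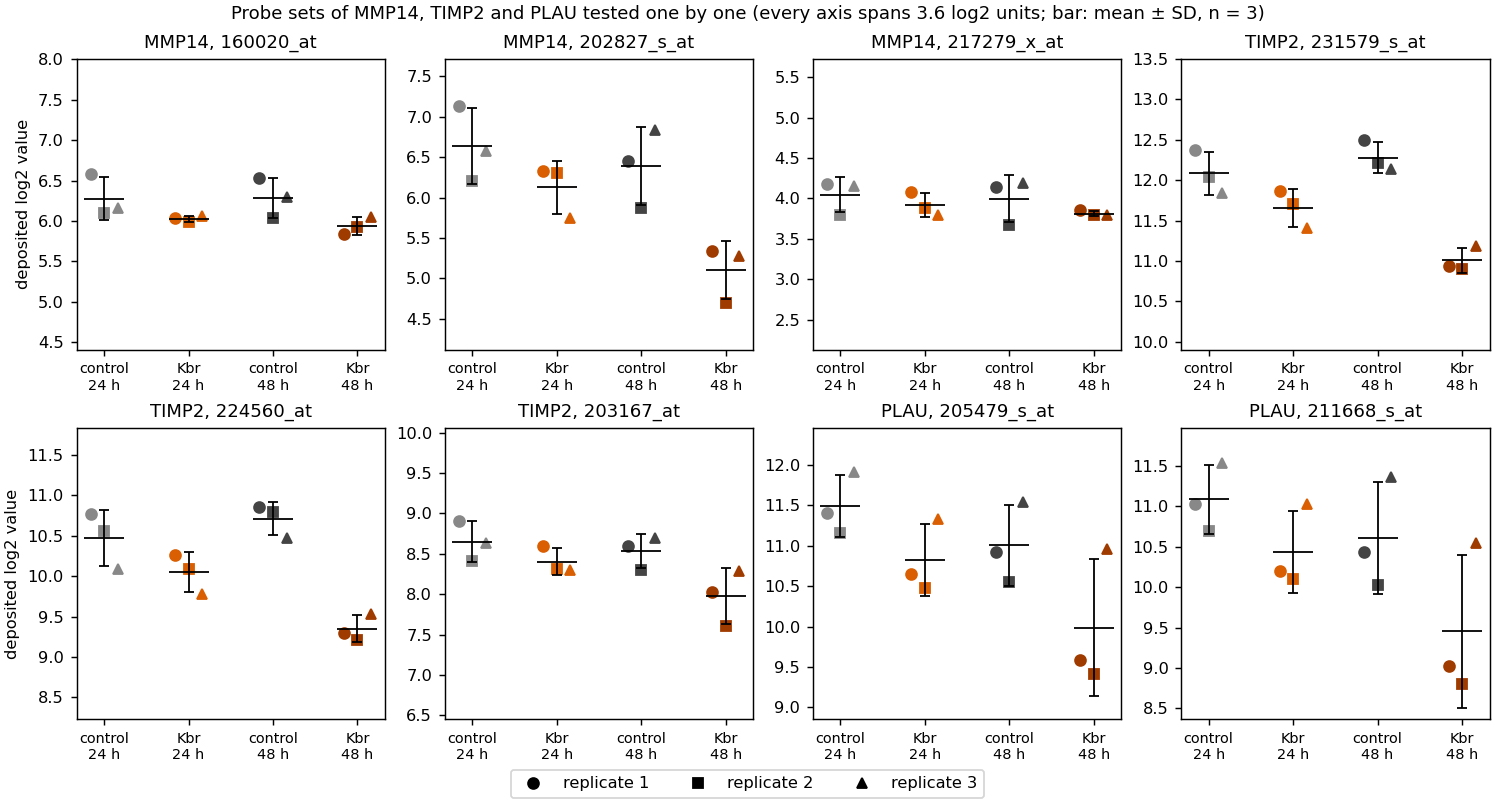
Deposited log2 values (y axis) by group (x axis) for the probe sets of MMP14, TIMP2 and PLAU that were tested one by one, each axis with the same span; marker shape gives the replicate number and the bar the mean ± SD of 3 arrays. MMP14 probe set 202827_s_at drops to 5.11 ± 0.36 in treated cells at 48 h while 160020_at stays at 5.93 ± 0.11, and in both PLAU probe sets replicate 3 is the highest array of every group.

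Counted over the 6 tested members, none passed at 24 h in limma, where 5.74% of all tested genes did. At an unadjusted p under 0.05 there was 1, TIMP2, and with the replicate block 1 passed, PLAU, where 24.4% of all genes did. At 48 h 3 of 6 fell, MMP7, TIMP1 and TIMP2, and none rose. Of all tested genes 42.8% passed at this time, 20.8% lower and 22% higher. With the block 5 of 6 fell, all but MMP1, beside 28.8% of all genes. The median log2 difference of the 6 was -0.39 at 24 h and -0.95 at 48 h, and that of all tested genes was -0.02 and -0.0038. Treated arrays lay below all controls for MMP1, MMP14 and TIMP1 at 24 h, and for MMP7, TIMP1 and TIMP2 at 48 h. Among all genes 15.9% did so at 24 h and 24.9% at 48 h. In all 3 pairs of the same number the treated array was lower for 6 of 6 members at 24 h. At 48 h this held for 5 of 6. Among all tested genes 35.7% were lower in all 3 pairs at 24 h and 36.6% at 48 h. The members share these arrays, so they are not independent units in such counts.

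The test of the change in the Kbr difference between the times was passed by none of 5 members, MMP1 left aside, and by 0.141% of all genes. TIMP2 was the 1 member with an unadjusted p under 0.05 there, and the 1 that passed with the block, where 7.36% of genes did. In the control time course none of the 5 members other than MMP1 passed, where 3.29% of all genes did, and MMP7 was the 1 with an unadjusted p under 0.05. With the block MMP7 passed, beside 22.5% of all genes. In treated cells 3 of 6 fell with time, MMP1, MMP7 and TIMP2, beside 10.6% of genes that passed in either direction and 5.04% that were lower. The MMP1 call is not independent support, since its fall with time in controls was part of the reason for choosing these genes. Its treated 48 h arrays, at 3.00, 3.02 and 4.61, also lay partly below the filter. PLAU joined the 3 with the block (-0.84, limma adjusted p = 0.00551), where 30.7% of all genes passed. Without treated replicate 3 at 48 h PLAU (-1.32, adjusted p = 0.021) and TIMP1 (-0.31, 0.0482) passed as well. The comparisons share arrays, and the treated 48 h arrays enter both the time course and the comparison with controls.

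**Figure D3:**
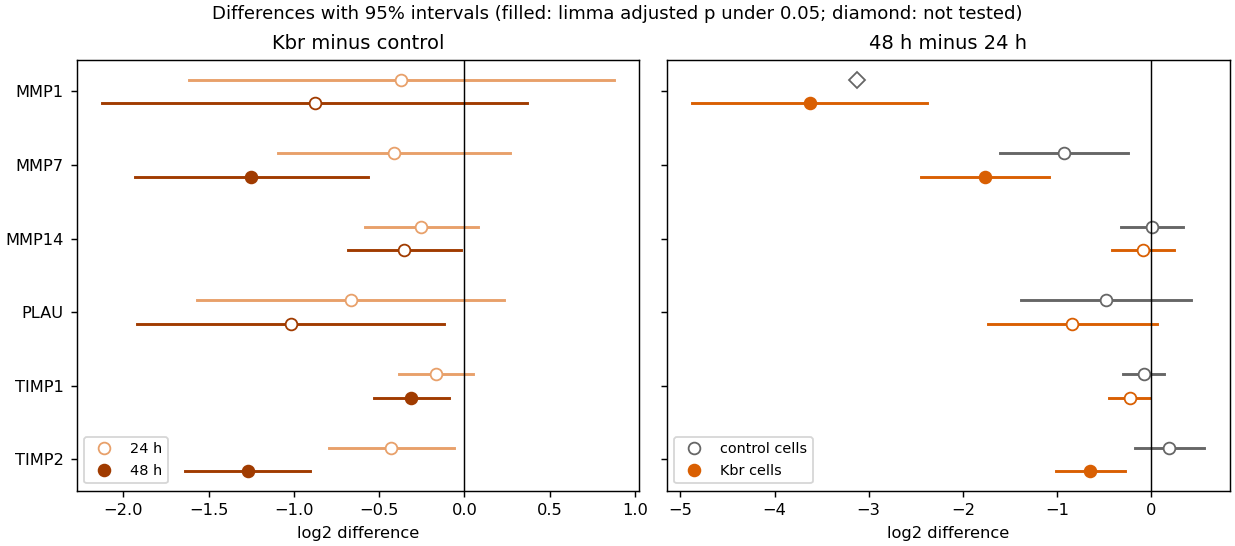
Log2 differences (x axis) with 95% intervals for the 6 tested genes (y axis): Kbr minus control at 24 and 48 h on the left, and 48 h minus 24 h in control and in treated cells on the right. Filled points passed in limma: MMP7, TIMP1 and TIMP2 on the left at 48 h, and MMP1, MMP7 and TIMP2 in treated cells on the right. The diamond is MMP1 in controls, which was not tested. Its fall there was part of the reason for choosing these genes, so the filled MMP1 point is not independent support.

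Proximal tubule markers were mostly below background, so the labelled cell type rests on few of them here. Of 13 named markers 12, LRP2, CUBN, AQP1, ANPEP and SLC34A1 among them, never exceeded a log2 value of 4, and PAX8 was the exception. All 6 epithelial markers were measured. No leukocyte marker of 7 and no endothelial marker of 6 passed the filter. Of 9 fibroblast markers COL1A2, COL3A1, PDGFRA, PDGFRB, THY1 and POSTN were below background on every array, while COL1A1, DCN and LUM were measured. These 3 fell at 48 h alongside MMP7 and TIMP2, with log2 changes of -2.06, -1.69 and -1.62 (limma adjusted p at most 0.000345). The summed linear level of the 9 was 5375 to 5663 in 48 h controls and 1526 to 2185 in treated cells, and 5700 to 8123 and 3664 to 5093 at 24 h. COL1A1 (-1.30, adjusted p = 0.00889) and DCN (-0.73, 0.0408) were already lower at 24 h, when no member passed, and all 3 fell with time in treated cells. Of the epithelial markers CDH1, CDH16, KRT19 and EPCAM fell at 48 h (4 of 6), and KRT19 (-0.85, limma adjusted p = 0.0363) and CDH1 (-1.75, 0.0373) at 24 h. Among all tested genes 20.8% fell at 48 h, and 5.74% passed in either direction at 24 h. With the block 4 of 6 epithelial markers fell at 24 h, where 24.4% of all genes passed in either direction. At 48 h 5 of 6 fell with it, KRT8 among them (-0.66, adjusted p = 0.00043), beside 28.8% of all genes, and KRT18 rose (0.36, adjusted p = 0.0179). The part of these markers in the protease results was not tested, and with bulk RNA fewer cells of a kind and less RNA in each cannot be told apart. Array medians lay between 2.91 and 2.99, and arrays of a group correlated at 0.982 to 0.993 across the tested genes. For ACTB the 3′ minus 5′ log2 difference, which grows as RNA breaks down, was 0.697 to 1.04 in 48 h controls and 0.779 to 1.07 in treated cells.

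Another 84 genes of pericellular proteolysis and its control, in 6 lists, set the members in context. Of these 54 were tested. None passed at 24 h in limma, with 7 at an unadjusted p under 0.05. At 48 h 24 of 54 passed, 7 higher and 17 lower, a share of 44.4% beside 42.8% of all genes. The lists thus passed about as often as any genes did.

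Of the 7 tested genes in the list of other metalloproteinases, the inhibitor gene RECK included, 3 fell at 48 h and none rose. The 3 were MMP15, MMP16 and MMP24, which encode membrane-type enzymes, and 20.8% of all tested genes fell at 48 h. MMP25, another membrane-type enzyme, had a difference of -0.10 (adjusted p = 0.602). MMP24 fell from 7.50 to 6.65 (log2 change -0.85, standard error 0.21, adjusted p = 0.00912), MMP15 from 6.07 to 5.19 (-0.88, adjusted p = 0.0112) and MMP16 from 5.88 to 5.16 (-0.72, adjusted p = 0.0268). The MMP16 call needed control replicate 2 and treated replicates 1 and 2 of 48 h (adjusted p as high as 0.0999 without one of them). MMP28 had a difference of 0.06 (adjusted p = 0.556), and RECK, a membrane-anchored inhibitor of metalloproteinases, of -0.03 (adjusted p = 0.831). At 24 h MMP15 (-0.53), MMP24 (-0.40), MMP9 (0.13) and MMP16 (-0.17) had adjusted p of 0.198 to 0.709. With the block MMP15 and MMP24 passed there (0.034 and 0.0165), beside 24.4% of all genes.

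Of 8 tested genes of plasminogen activation 2 fell at 48 h and none rose, beside 20.8% of all tested genes that fell. S100A10, a partner of annexin A2 that binds plasminogen at the cell surface, fell from 14.72 to 13.87 (log2 change -0.85, standard error 0.14, limma adjusted p = 0.00101). SERPINF2, the inhibitor of plasmin, fell from 4.70 to 3.15 (-1.55, adjusted p = 0.0102), a value below the filter that depends on the background correction. The urokinase receptor gene PLAUR had a difference of 0.07 at 48 h (adjusted p = 0.875) and 0.38 at 24 h (adjusted p = 0.485, and 0.00983 with the block). PLAT, the tissue-type activator, had -1.17 at 24 h (0.443, and 0.00215 with the block) and -0.68 at 48 h (0.555, and 0.00524 with the block). SERPINE2, an inhibitor of urokinase and thrombin, had 0.23 at 48 h (0.28) and the endocytic receptor gene LRP1 -0.22 (0.18). With the block PLAU was lower and PLAUR higher at 24 h.

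Of 6 tested proprotein convertases and membrane serine proteases with their inhibitors, 2 fell at 48 h and none rose. Among all tested genes 20.8% fell at this time. Hepsin (HPN), a membrane serine protease of epithelia, fell 3.57-fold, from 9.43 to 7.59 (log2 change -1.84, standard error 0.38, limma adjusted p = 0.00314). SPINT1, an inhibitor of such proteases, fell from 8.56 to 7.77 (-0.79, adjusted p = 0.0365), a call that needed control replicates 1 and 3 and treated replicates 2 and 3 of 48 h (as high as 0.128 without one). SPINT2 had -0.29 (0.12) and the convertase PCSK7 -0.40 (0.105). With the block 5 of the 6 fell at 48 h, SPINT2, PCSK7 and PRSS8 among them, beside 28.8% of all genes. HPN, PRSS8 and SPINT1 fell with it at 24 h, where 24.4% of all genes passed in either direction.

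ADAM and ADAMTS proteases shed membrane proteins or cut proteoglycans and procollagen. Of 11 tested 1 rose and 4 fell at 48 h, where 22% of all tested genes rose and 20.8% fell. The sheddase ADAM9 rose from 7.57 to 8.30 (log2 change 0.74, standard error 0.17, limma adjusted p = 0.00614). ADAMTS9 fell from 10.03 to 8.71 (-1.32, adjusted p = 0.00309), ADAMTS3, a procollagen peptidase, from 11.54 to 10.53 (-1.02, adjusted p = 0.00202), the aggrecanase ADAMTS5 from 5.93 to 4.14 (-1.80, adjusted p = 0.00775) and ADAM8 from 5.52 to 4.88 (-0.63, adjusted p = 0.0248). The ADAM8 call needed control replicates 1 and 3 of 48 h (0.076 at most without one).

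**Figure D4:**
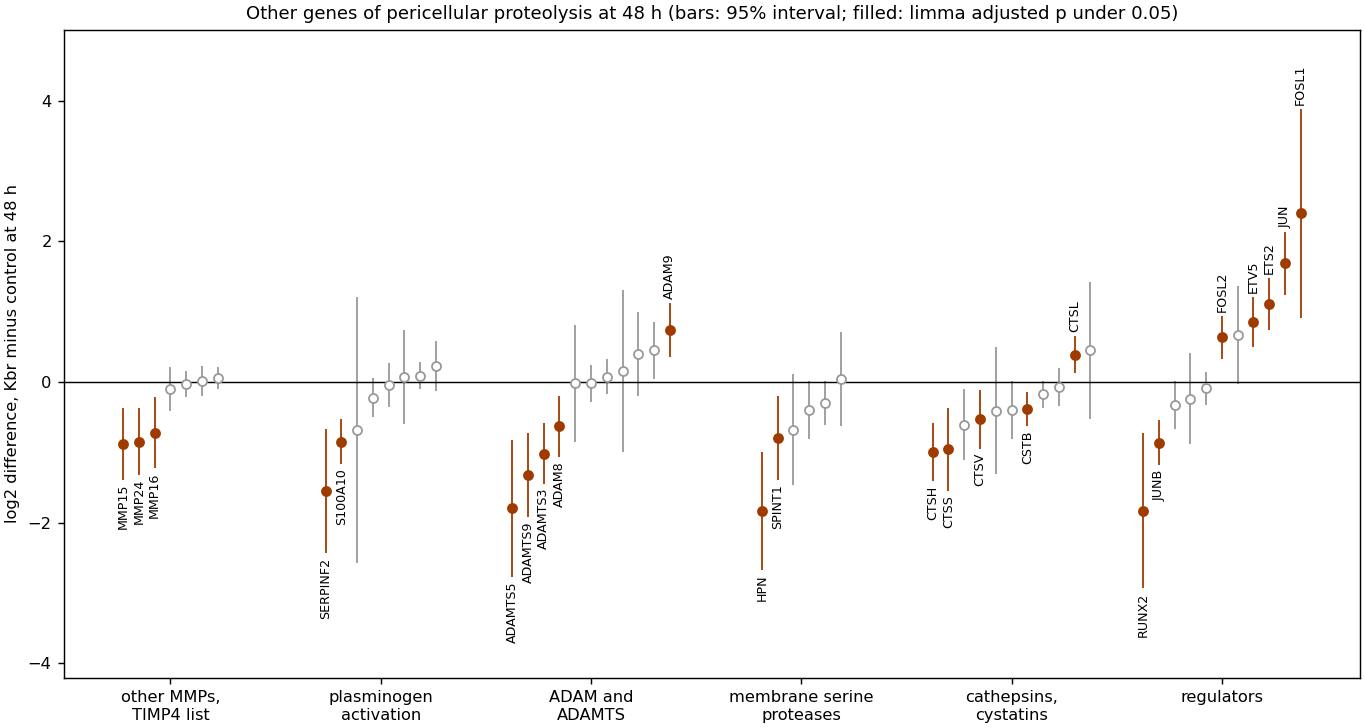
Log2 difference between Kbr and control at 48 h (y axis) with 95% intervals for the tested genes of the 6 other lists (x axis, ordered by value within a list); filled, labelled points passed in limma. Of 54 genes 17 were lower and 7 higher, and 5 of the 7 higher ones are among the regulators. Among all tested genes 20.8% were lower and 22% higher.

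The last list holds transcription factors known to act on protease promoters and the metalloproteinase inducer BSG. Of 11 tested 5 rose and 2 fell at 48 h, where 22% of all tested genes rose and 20.8% fell. JUN rose from 8.72 to 10.41 (log2 change 1.69, standard error 0.20, limma adjusted p = 0.000177), ETS2 from 7.40 to 8.50 (1.10, adjusted p = 0.000566), ETV5 from 9.47 to 10.32 (0.85, adjusted p = 0.002), FOSL2 from 8.07 to 8.70 (0.64, adjusted p = 0.00392) and FOSL1 from 4.26 to 6.65 (2.40, adjusted p = 0.0151). JUNB fell by 0.86 (adjusted p = 0.000982) and RUNX2 by 1.83 (adjusted p = 0.0135). The FOSL1 call needed control replicate 2 and treated replicate 3 of 48 h (0.059 at most without one), and the RUNX2 call control replicates 1 and 3 and treated replicate 2 (0.0553 at most). At 24 h RUNX2 (-1.86, adjusted p = 0.0537), ETS2 (0.59, 0.0611), JUN (0.70, 0.064) and JUNB (-0.46, 0.0835) stood just short of the threshold. With the block all 4 passed there (0.000643 to 0.0194), in a total of 4 higher and 3 lower, beside 24.4% of all genes that passed. FOSL1, FOSL2, JUN and JUNB encode subunits of AP-1.

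The genes most like MMP1 over the 12 arrays were B3GNT5 (Pearson's r = 0.974), CSRP2 (0.973), S100A2 (0.970), C1orf174 (0.964) and SPA17 (0.960). The group means of S100A2 were 12.03 in 24 h controls, 11.81 in treated cells at 24 h, 10.73 in 48 h controls and 9.91 in treated cells at 48 h, a lower level at 48 h in both arms. Those most like MMP7, the member with the next widest range of group means, were SPOCK1 (0.979), GPX8 (0.968), GINS2 (0.968), RPS27L (0.966) and H2AZ2 (0.960). SPOCK1, which encodes a matrix proteoglycan, went from 11.06 and 10.78 at 24 h to 10.34 and 9.40 at 48 h in controls and treated cells. Among the members r was 0.92 for PLAU and TIMP1, 0.89 for MMP1 and MMP7 and 0.16 for MMP1 and MMP14. These correlations describe 12 arrays in 4 groups, share the groups and replicate numbers, and carry no test.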

How the data were processed

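Affymetrix arrays of 12 HK-2 cultures were summarized by the authors as log2 expression values of 54675 probe sets with GCRMA, per the submitters' processing notes; the version of GCRMA is not given in the sources used here. GCRMA corrects background from probe sequence and normalizes by quantiles, so weak probe sets gather at the lower end. Groups, times and replicate numbers come from the labels. Of the probe sets 41097 carried 1 gene symbol, 1801 more than 1 and 11777 no symbol. The probe set with the highest mean stood for a gene, and genes above 4 in at least 3 arrays were kept (10665 of 19775). A model of 4 group means was fitted with limma 3.58.1 in R 4.3.3 (lmFit, eBayes) and checked on simulated data. Tests were two-sided, with Benjamini-Hochberg adjustment over all genes. The labels number the replicates and state no pairing. Same-numbered arrays deviated together from their group means (r of 0.28 to 0.70 in 18 pairs). In 36 pairs of different number r was -0.45 to -0.061, negative in part because the group mean was subtracted. The use of the numbers as a block rests on this check. Members and lists were chosen with earlier results of these data known. Named genes were all members, up to 4 of each list with the smallest p in Kbr against control at each time, markers as counts with those that passed, and the 5 genes most like MMP1 and MMP7. Other list genes named, such as RECK and those called only in a time course or beyond the first 4, were chosen after their values were seen. The alternatives were the replicate block, no filter, a floor of 6, repeated quantile normalization, median subtraction, the mean of probe sets, every probe set, only the groups compared, a variance trend, and leaving out each array.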

Additional observations from a re-analysis of the deposited data

How the results depend on the processing

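The block on replicate number moved the count of members that passed from 0 to 1 at 24 h, from 3 to 5 at 48 h, from 0 to 1 for the change between times and from 0 to 1 in the control time course; it changed no other member's call except PLAU in the treated time course, which passed. Leaving out 1 array gave 0 to 0 members at 24 h, 2 to 4 at 48 h, 0 to 0 for the change between times, 0 to 0 in the control time course and 2 to 5 in the treated time course, the 5 without treated replicate 3 at 48 h. No called member changed sign in any alternative. Over single members and alternatives, 558 of the values kept their side of the threshold, 14 passed where they had not and 11 were lost. TIMP2 in the treated time course was lost with no filter (adjusted p = 0.0748) and with only the groups compared (0.0764). With the block 2602 genes in place of 612 passed at 24 h, and 6130 in place of 4564 at 48 h, of which 3072 in place of 2213 were lower. It gave 785 in place of 15 for the change between times. The control time course gave 2404 in place of 351 and the treated one 3273 in place of 1135. With only the groups compared the time courses gave 9 and 224 genes. Without a filter they gave 185 and 726, and the change between times 32; a floor of 6 gave 9 there, median subtraction 8 and the mean of probe sets 3. Every probe set by itself gave 7528 probe sets in place of 4564 genes at 48 h. Leaving out 1 array gave 81 to 767 genes at 24 h, 3641 to 4491 at 48 h and 0 to 479 for the change between times. It gave 21 to 558 in the control and 288 to 2206 in the treated time course. The signal of MMP1 at 48 h was too near the lower end of the scale to size its difference.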

Other observations

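Lysosomal cathepsins, which degrade matrix after uptake, and cystatins, which inhibit the cysteine cathepsins among them, were not described above. Of 11 tested 1 rose and 4 fell at 48 h, and none passed at 24 h (limma, 0 at an unadjusted p under 0.05). Among all tested genes 22% rose and 20.8% fell at 48 h, and 5.74% passed at 24 h. CTSH fell from 11.69 to 10.69 (log2 change -0.99, standard error 0.19, adjusted p = 0.00186), CTSS from 7.92 to 6.96 (-0.95, adjusted p = 0.0153), CTSV from 9.96 to 9.43 (-0.53, adjusted p = 0.0434) and the inhibitor cystatin B, CSTB, from 13.02 to 12.63 (-0.39, adjusted p = 0.0154). CTSL rose from 9.35 to 9.74 (0.39, adjusted p = 0.0216). CTSV passed in 3 of 12 fits that left out 1 array (up to 0.153), and CTSS (up to 0.0592), CSTB (up to 0.0613) and CTSL (up to 0.0774) each in 9. CTSH passed in all 12. With the replicate block 2 rose and 6 fell at 48 h, where 3058 of all 10665 genes rose and 3072 fell (28.8%). CTSH passed with it at 24 h (-0.37, limma adjusted p = 0.0444), beside 24.4% of all genes.

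With time alone, the urokinase inhibitor SERPINE2 fell in controls by 0.87 (limma adjusted p = 0.0257) and in treated cells by 0.69 (adjusted p = 0.0237). In controls ADAMTS3 rose by 0.81 (adjusted p = 0.0494) and CTSH by 0.89 (adjusted p = 0.0361). The 48 h falls of ADAMTS3 and CTSH given above are thus differences from controls that had risen. No gene of the ADAM or cathepsin lists passed as lower with time in treated cells. In treated cells PLAUR fell by 1.19 (adjusted p = 0.0335), S100A10 by 0.78 (adjusted p = 0.0106) and MMP24 by 0.75 (adjusted p = 0.0483), while ADAMTS15 rose by 1.41 (adjusted p = 0.0119) from a mean of 3.52, below the filter. Of all 54 genes of these lists 5.56% passed in controls and 11.1% in treated cells, beside 3.29% and 10.6% of all tested genes.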
